A study of Mus musculus with 4 samples.

Results

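Corticotropin-releasing factor (CRF) signalling genes were followed in the organ of Corti of mouse embryos that had lost Tbx2 in Sox2-expressing cells. The set held the ligands Crh, Ucn and Ucn2, the receptors Crhr1 and Crhr2, and the binding protein gene Crhbp, 6 of the 24489 genes named on the array. Their members were taken as all 7 probes carrying these names, out of 39429 probes. The set was selected on the same Sox2-Tbx2LOF over control ratios that are described here, because Crhr1 was higher in the mutant pools, so these ratios are a description and carry no test.

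CRF and the urocortins are secreted peptides that act on a pair of class B G protein-coupled receptors. CRHR1, the main receptor for CRF in the pituitary stress response, couples mostly to Gs and cyclic AMP, CRHR2 prefers the urocortins, and CRH-binding protein sequesters the peptides outside the cell. The cochlea is known to hold its own CRF system, with CRHR1 described in supporting cells.

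Each of 4 two-colour arrays compared 1 pool of Sox2(creERT2);Tbx2(fl/fl) organs (Sox2-Tbx2LOF) with 1 pool of Cre-negative Tbx2(fl/n.d.) control organs, all of the NMRI strain. Arrays 1 and 2 held female pools and arrays 3 and 4 male pools, and the mutant RNA was labelled with Cy3 on arrays 1 and 3 and with Cy5 on arrays 2 and 4. All dams, those of the controls included, received 4 mg of tamoxifen by mouth at E16.5, with progesterone, and the basal portion of the organs was taken at E18.5 without spiral ligament and ganglia. The Cre enzyme was knocked into Sox2 and present in the mutants alone, so mutant pools also carried a modified Sox2 allele that their controls lacked. The labels leave the second Tbx2 allele of the controls undetermined, and the mating described for the mutants also brings in the R26mTmG reporter. RNA of a whole dissected tissue was measured, so more cells of a type and more RNA per cell cannot be told apart.

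Of 39429 probes, 28104 were bright enough to be tested, with 70.4 to 75.2% of probe spots well above background in each channel and 0 saturated. All arrays shared 1 slide and scan. Tbx2 itself read lower in the mutant pool on 4 of 4 arrays, by a mean log2 ratio of -0.15 with an SD of 0.14, which did not pass the test (limma adjusted p = 0.313); whether its probe lies in the deleted part was not determined, so it does not check the genotype. Among tissue markers, 4 of 6 inner hair cell genes and 3 of 5 inner supporting cell genes fell past both thresholds. The thresholds used throughout were a limma adjusted p under 0.05 and at least 1.5-fold. Over all 18226 genes, 0.307% passed them in either direction. The paper had picked Fgf8, Cabp2, Slc17a8, Fgf20, Otol1 and Npy as lowered in these same arrays, so the counts are no independent check. It places Npy in inner pillar cells.

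The probes of the measured members are shown by the opening 30 bases of each 60-base oligonucleotide, since the results rest on which transcript stretch each one reads. The 2 Crhr1 probes share the transcript but read different stretches of it.
Crhr1 A_51_P229163: cagcgacaggtggctcctgggacaactaac
Crhr1 A_55_P1997609: atcatggaaaactcccttctgagactgtaa
Crhr2 A_55_P1987156: ccaacagacttgaaaaggccccttgtctag
Crhbp A_52_P460734: agctggagccatttgagctagaaacctcga

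In mm9 coordinates the brighter Crhr1 probe lay at chr11:104036691-104036750 and began at base 2286 of the transcript. The dimmer one lay at chr11:104036182-104036241, from base 1777. The Crhr2 probe lay at chr6:55040043-55040102 and the Crhbp probe at chr13:96201903-96201962.

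Crhr1, the receptor that binds CRF with high affinity, was higher in Sox2-Tbx2LOF on every array. On the log2 scale of normalized channel levels, the mutant pools read 8.18, 8.12, 8.24 and 8.02 on arrays 1 to 4. The control pools read 7.56, 7.71, 7.68 and 7.59. The lowest mutant pool (8.02) lay above the highest control pool (7.71), so the groups did not overlap. The log2 ratios were 0.61, 0.41, 0.56 and 0.43, a mean of 0.50 ± 0.10 (SD, n = 4), or 1.42-fold. All 16 spots of the probe gave a positive log2 ratio, from 0.34 to 0.74. Both arrays with the mutant in Cy3 gave a larger ratio than both with the mutant in Cy5, while the sexes gave like means of 0.51 in females and 0.50 in males. Of the 28104 tested probes, 41 had a larger mean log2 ratio.

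The size of the Crhr1 ratio depended on how the signals were processed. The offset of 50 added to all signals draws ratios of dim probes toward 0. Without it the mean log2 ratio was 0.64, the scanner software's ratio gave 0.71 and the authors' processed values 0.72. All were above the 1.5-fold line that 0.50 stayed under. Which processing step moved the scanner ratio and the authors' values was not tested. The paper, using SAM with a minimum of 1.5-fold, lists Crhr1 among the genes raised in these arrays.

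**Figure D1:**
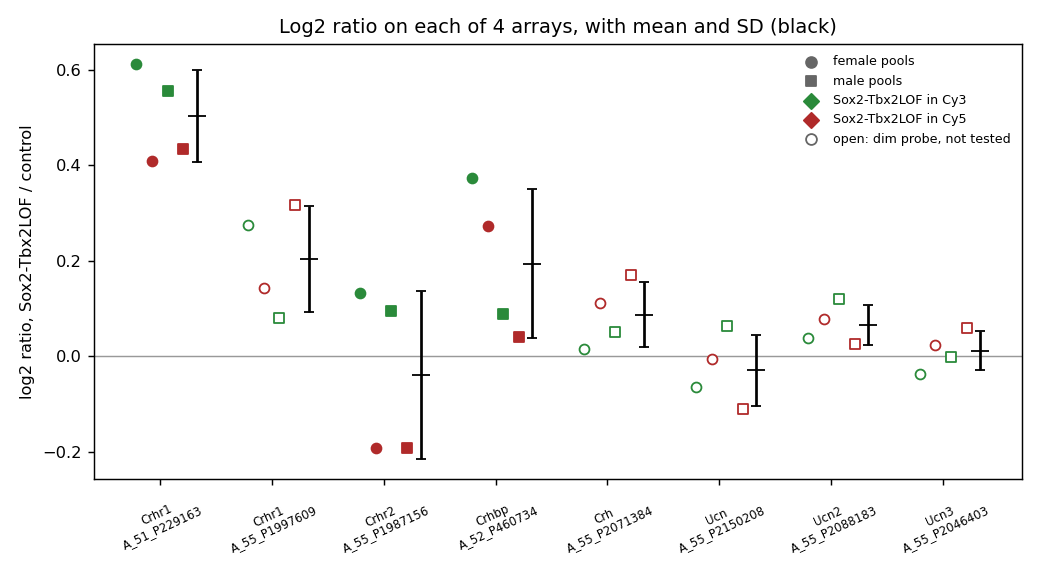
Log2 ratio of Sox2-Tbx2LOF over control (y axis) for the 7 member probes and Ucn3 (x axis) on each of 4 arrays, with the mean and SD in black; circles are female and squares male pools, green and red give the dye of the mutant, and open symbols mark probes too dim to test. The 4 points of the brighter Crhr1 probe sit between 0.41 and 0.61, and the Crhr2 points change sign with the dye.

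The second Crhr1 probe was close to the detection limit. It was well above background on 2 of 4 arrays in Sox2-Tbx2LOF and on 0 of 4 in controls, and was not tested. Its log2 ratios were 0.28, 0.14, 0.08 and 0.32, a mean of 0.20 ± 0.11 (SD, n = 4). All 4 arrays were positive, but so were those of the Crh and Ucn2 probes, which were above background on 0 of 4 arrays in either genotype. Nothing is read from the sign at this brightness. The measured mean log2 levels were 6.48 in mutant and 6.28 in control pools. Setting control levels no lower than the lowest signals called above background gave a lower bound of 1.04-fold. With mutant pools above background on only 2 of 4 arrays, this bound says little.

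Crhr2, the urocortin-preferring receptor, gave log2 ratios of 0.13, -0.19, 0.10 and -0.19, a mean of -0.04 ± 0.18 (SD, n = 4). The ratio was positive on both arrays with the mutant in Cy3 and negative on both with it in Cy5. The mutant pools read 7.48, 7.27, 7.58 and 7.52 and the control pools 7.35, 7.46, 7.48 and 7.72 on the log2 level scale, and the groups overlapped.

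Crhbp, whose product binds and holds CRF, gave log2 ratios of 0.37, 0.27, 0.09 and 0.04, a mean of 0.19 ± 0.16 (SD, n = 4). The mutant pools read 10.63, 10.79, 11.05 and 11.002 on the log2 level scale. The control pools read 10.26, 10.51, 10.96 and 10.96. Every array was positive, but the groups overlapped, and the male pools of either genotype lay above the female pools of both.

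**Figure D2:**
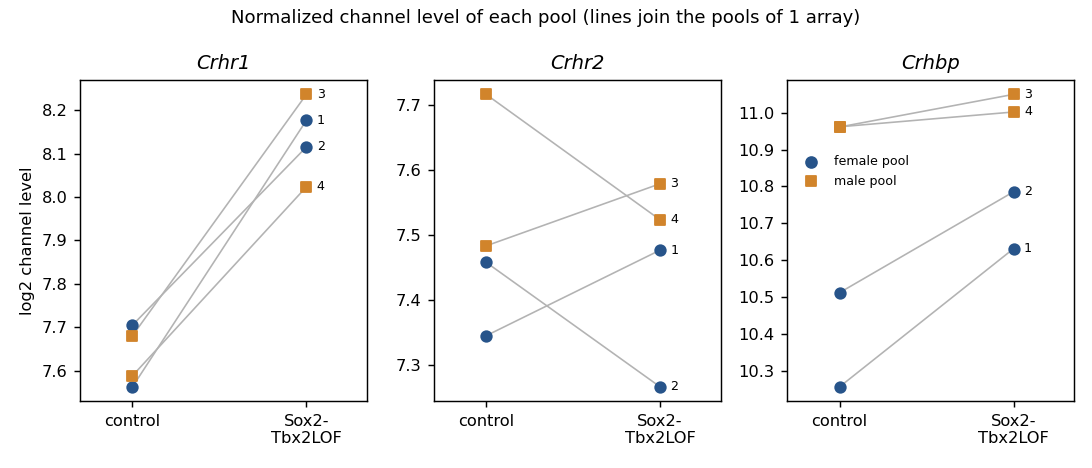
Normalized log2 channel level (y axis) of each pool for the 3 measured members by genotype (x axis); circles are female and squares male pools, lines join the 2 pools of 1 array, and the number beside a line is the array. All 4 lines rise for Crhr1, from 7.56-7.71 to 8.02-8.24. All 4 also rise for Crhbp, where the male pools lie above the female pools.

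The ligands were not measured above background. The probes of Crh, the hypothalamic releasing peptide, and of Ucn and Ucn2, the urocortins, were well above background on 0 of 4 arrays in either genotype. The same held for Ucn3, a further urocortin that is no member. Their log2 levels lay between 6.0 and 6.34, and the lowest probe levels called above background lay between 6.31 and 6.52 by array and channel. Expression below that limit was not detectable on these arrays, and the ratios of these genes are plotted as open symbols but not read.

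Of the 3 measured members, 1 (Crhr1) had a limma adjusted p under 0.05 for genotype, against 0.986% of all tested probes. Past both thresholds were 0 of 3, against 0.249%. Genotypes without overlap were seen for 1 of 3, against 2.5%. These counts restate the contrast by which the set was chosen, and nothing is read from them.

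Sex was not used to choose the set, so levels of the sexes could be tested, with a separate-channel limma fit over the 8 pools of 4 arrays. Crhbp was lower in female pools, at 10.26 to 10.79 against 10.96 to 11.05 in male pools, a log2 difference of -0.45 (SE 0.090; limma adjusted p = 0.347), or 0.734 of the male level. Crhr2 read 7.27 to 7.48 in female and 7.48 to 7.72 in male pools, a log2 difference of -0.19 (SE 0.056; limma adjusted p = 0.605). Neither range overlapped between the sexes, as for 4.28% of tested probes. For Crhr1 the log2 difference was 0.01 (SE 0.063; limma adjusted p = 0.980). After adjustment 0 of 3 members differed by sex, against 0.0676% of all probes, and 2 of 3 had an unadjusted p under 0.05, against 7.9%. The pools of a sex came from 2 arrays, so an array effect and sex cannot be told apart.

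The genotype ratio of Crhbp was 0.32 in females and 0.06 in males, a log2 difference of 0.26 (SE 0.105; limma adjusted p = 0.9999). For Crhr1 and Crhr2 this difference was 0.02 each (SE 0.106 and 0.105). Of the sex by genotype terms, 0 of 3 members and 0% of all probes passed after adjustment in limma. Crhbp alone of the 3 had an unadjusted p under 0.05, against 2.01% of probes. With 1 residual degree of freedom per probe this term is weakly tested, and a p that misses the threshold does not show that the sexes responded alike.

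Of 94 genes from 6 pathway lists and Ucn3, 84 were bright enough to test, each read by its brightest probe. The lists covered receptor signalling and desensitisation, the stress hormone axis, early genes induced by cAMP and class B receptor relatives. Not all of them lie downstream of the CRF receptors. None of the 84 passed both thresholds (limma), against 0.307% of 18226 genes, and none had an adjusted p under 0.05, against 1.25%. An unadjusted p under 0.05 was found for 15 of 84, against 8.33%. Their median log2 ratio was -0.001, against 0.003 over all genes.

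The Gs and cAMP arm, which carries the main CRHR1 signal, had a median log2 ratio of 0.01 over 27 genes. Its largest means were 0.13 for Pde4b, a cAMP-degrading phosphodiesterase, and 0.12 for the adenylyl cyclase Adcy1. The Gq, phospholipase C and MAP kinase arm had a median of -0.002 over 15 genes, with the IP3 receptor Itpr3 at 0.19 and the protein kinase C gene Prkca at 0.14. Receptor desensitisation genes had a median of 0.004 over 8, with the G protein regulator Rgs4 at 0.18 and the receptor kinase Grk3 at 0.14. Genes of the stress hormone axis had a median of -0.02 over 14, with the prohormone convertase Pcsk1 at 0.13 and the ACTH receptor partner Mrap at 0.11. None of these values passed the test. Pde4b and Mrap were positive on both arrays with the mutant in Cy3 and negative on both with it in Cy5. Itpr3, Rgs4 and Grk3 were negative on array 2 alone, and Adcy1, Prkca and Pcsk1 were positive on every array.

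Early genes induced by cAMP had a median log2 ratio of -0.06 over 9 genes, 8 of them negative. Fos, an immediate-early transcription factor, read -2.01, 0.14, -0.17 and -0.72 on arrays 1 to 4, a mean of -0.69 ± 0.95 (SD, n = 4; limma adjusted p = 0.501). Its arrays disagreed in sign, and it passed both thresholds when array 2 was left out (-0.90, limma adjusted p = 0.0297) or array 3 (-1.15, limma adjusted p = 0.00829). Egr1, a further immediate-early factor, read -0.46, -0.11, -0.20 and -0.21, a mean of -0.25 ± 0.15 (SD, n = 4; limma adjusted p = 0.120).

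Relatives of the CRF receptors in class B had a median log2 ratio of 0.05 over 11 genes. Gipr, the receptor for the gut hormone GIP, read 0.39, 0.02, 0.63 and 0.16, a mean of 0.30 ± 0.26 (SD, n = 4; limma adjusted p = 0.0561). Its adjusted p fell under 0.05 with an offset of 0 (0.41, limma adjusted p = 0.0290), without array 1 (0.36, limma adjusted p = 0.0414) and without array 2 (0.33, limma adjusted p = 0.0213), each time under 1.5-fold. The PACAP receptor gene Adcyap1r1 averaged 0.13.

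**Figure D3:**
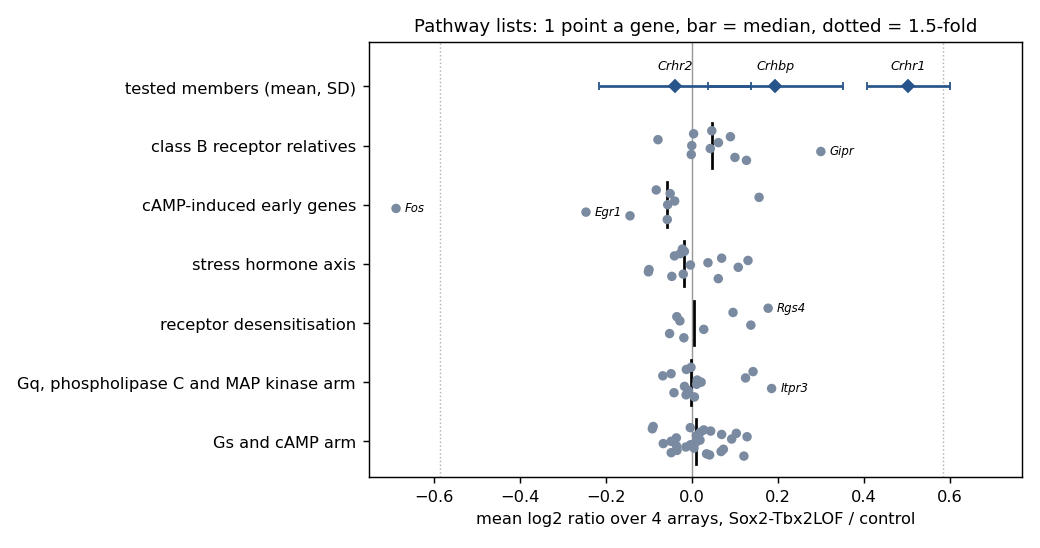
Mean log2 ratio over 4 arrays (x axis) of each tested gene, 1 point a gene, by pathway list (y axis), with black bars at list medians, dotted lines at 1.5-fold, and the 3 measured members above as diamonds with SD. List medians lie between -0.06 and 0.05, and Fos alone lies beyond the dotted lines, at -0.69, without passing the test.

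The Crhr1 surroundings were examined because Crhr1 and Tbx2 lie on the same chromosome, 18.4 Mb apart. Within 1 Mb of the Crhr1 probe, 21 other genes were tested, and 0 passed both thresholds in limma, against 0.307% of all genes. The adjusted p alone was passed by 0, against 1.25%, and 3 of 21 had an unadjusted p under 0.05, against 8.33%. Their median log2 ratio was 0.02, from -0.05 to 0.19. The nearest tested genes on either side, Arf2 and Gm10844, averaged -0.01 and 0.04.

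**Figure D4:**
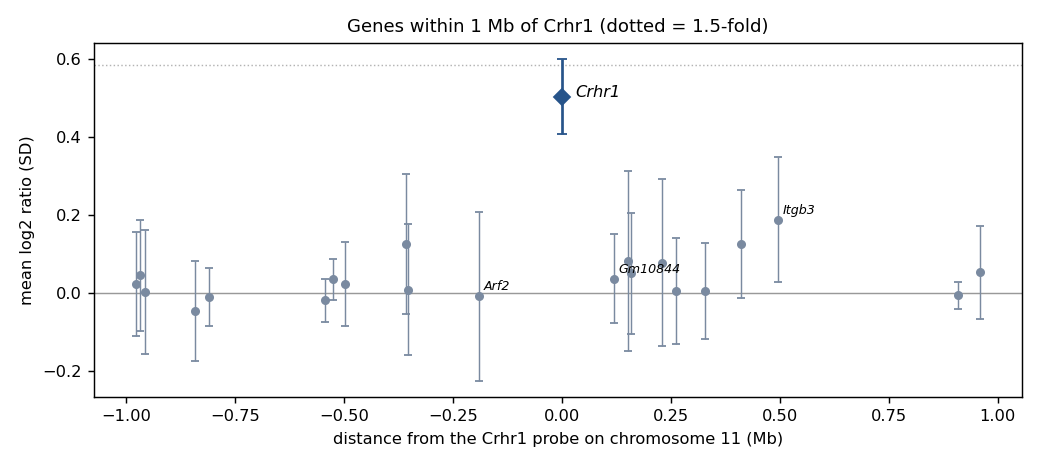
Mean log2 ratio with SD over 4 arrays (y axis) of the tested genes within 1 Mb of the Crhr1 probe, by distance from it in Mb (x axis); the diamond is Crhr1 and the dotted line marks 1.5-fold. Crhr1 stands at 0.50 and the 21 neighbours between -0.05 and 0.19.

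By Euclidean distance over the 4 log2 ratios, the nearest of 18225 other genes was Slc16a11, a monocarboxylate transporter family gene (distance 0.086), at 0.59, 0.40, 0.60 and 0.50. Micalcl (0.156), Insyn2b (0.164), Zfp871 (0.214) and Gdf6, a BMP family ligand (0.218), followed. They were picked for a like pattern, which carries no test.

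A T-box half-site was searched as AGGTGTGA on both strands in the RefSeq promoter windows around annotated start sites (GRCm38.p6). It was in 1.28% of 32851 windows and in 0 of the 5 found for Crhr1, Crhr2, Crhbp, Ucn and Ucn3, which says only that these letters are not in these windows.

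Markers of cell types that could accompany Crhr1 were read in the same pools. Over all 18226 genes, 0.307% passed both thresholds and 1.25% had a limma adjusted p under 0.05, in either direction. The paper counts Crhr1 among genes described in the outer compartment. Of 10 outer supporting cell genes, 0 passed both thresholds, and Hey2 (0.29) and Etv4 (-0.27) had a limma adjusted p under 0.05. The list was split, 5 higher and 5 lower, with a median log2 ratio of 0.01. Prox1 read 0.17 (limma adjusted p = 0.232). At E18.5 the paper found PROX1-positive outer supporting cells expanded medially, and Etv4 and Etv5 lowered or lost in pillar cells. The median therefore does not show that these cells were unchanged. Of 10 outer hair cell genes, 2 rose past both thresholds, Insm2 (0.88) and Strip2, and the median was 0.20. The paper had picked Insm2 as raised in these same arrays. Inner hair cell genes were led by Fgf8 at -1.57 and inner supporting cell genes by Otol1 at -0.86. Npy (-0.69), in inner pillar cells by the paper, was counted in the inner supporting cell list, where it passed both thresholds. None of 5 general hair cell genes passed, with Gfi1 at -0.24. Mesenchyme genes were positive for 6 of 7, against 9547 of 18226 genes, and 0 of 7 passed both thresholds. Col1a1 stood at 0.34 (limma adjusted p = 0.0608). Their summed linear level was 264100 to 284400 in mutant and 232800 to 275900 in control pools. Neuron, glia, red blood cell, macrophage, endothelium and melanocyte lists had 0 genes past the thresholds and medians from -0.14 to 0.08. Leaving glia aside, their largest mean log2 ratios were -0.13 for Prph, -0.27 for Slc4a1, 0.064 for Aif1, 0.12 for Cdh5 and -0.25 for Pmel, in that order. The paper's in situ hybridization, after an earlier tamoxifen pulse, found Crhr1 at E18.5 only in the apical turn. These arrays held the basal portion. The part of these cell types in the Crhr1 ratio was not tested.

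**Figure D5:**
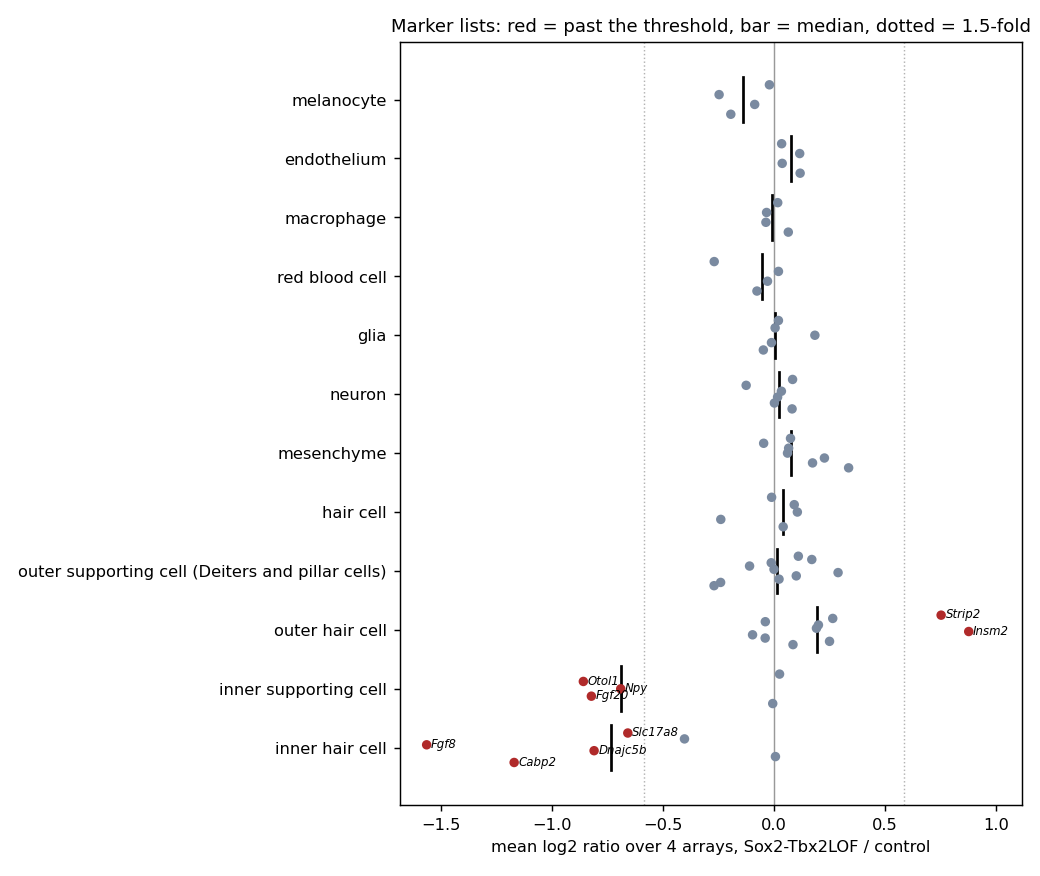
Mean log2 ratio over 4 arrays (x axis) of each tested marker gene, 1 point a gene, by cell type list (y axis), with black bars at medians, dotted lines at 1.5-fold and genes past both thresholds in red. Red points lie to the left for the inner hair cell (4) and inner supporting cell (3) lists and to the right for the outer hair cell list (2).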

How the data were processed

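RNA of 4 Sox2-Tbx2LOF and 4 control pools was hybridised in pairs to 4 two-colour Agilent arrays (mm9). The authors scanned them with Agilent Feature Extraction 10.7.3.1, and the deposited files give each spot's intensity and a log10 ratio of red over green. The authors' series table holds signed fold changes, whose direction was settled against the scanner values. From mean and local background intensities, limma 3.58.1 (R 4.3.3) applied normexp with an offset of 50, then loess, and spots of a probe were averaged; flagged spots and controls were left out. Ratios were turned to Sox2-Tbx2LOF over control and fitted with a dye term. A probe was tested if well above background on at least 3 of 4 arrays in either genotype; a gene was read by its brightest tested probe. Channel levels were scaled with Aquantile, and sex was fitted on separate channels (statmod 1.5.0). P-values were adjusted by Benjamini-Hochberg over all tested probes, and a gene kept the adjusted value of its probe. The study's methods used SAM, in place of which an unpaired limma fit was an alternative.

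Members and lists were chosen with earlier results of these data known. Named genes were the members, Ucn3, Tbx2, in each pathway list those past the threshold or else the 2 largest mean ratios, the 5 genes nearest to Crhr1 in pattern, the flanking genes and the leading marker of a list; that of the glia list is not reported here. Strip2, Hey2, Etv4, Etv5, Prox1 and the further value ranges were named after their values were seen. The fits were tested on simulated data, and recovery by adjusted p depended on how probe variances were drawn. At a log2 change of 0.5, the genotype fit recovered 98.5 or 54.5% of changed probes by the variances used. The sex fit recovered 81.5 or 65.5%, and the sex by genotype fit 45.5 or 0%. A lack of calls is thus weak evidence at changes of that size, most of all for sex by genotype. The number of arrays limits the precision, and separate litters per pool are not stated in the labels.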

Additional observations from a re-analysis of the deposited data

Results flagged for a closer look

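The second Crhr1 probe, A_55_P1997609, was left out of the tests as too dim, yet was well above background on 2 of 4 arrays in Sox2-Tbx2LOF and on 0 of 4 in controls. Both were arrays with the mutant in Cy3, and the channels differed in local background on all 4 arrays. Control pools in Cy3, on arrays 2 and 4, had 0% of this probe's spots above background. The part of the dye in this count was not tested.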

How the results depend on the processing

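The Crhr1 mean log2 ratio of 0.50 was 0.64 with an offset of 0, 0.71 with the scanner ratio and 0.72 with the authors' processed values, and 0.47 to 0.53 when 1 array was left out. Crhr2 ranged from -0.10 to 0.02 and Crhbp from 0.13 to 0.25 over 8 alternatives. The count of pathway genes past the threshold was 0 in 11 of 13 alternatives and ranged from 0 to 1 when 1 array was left out, the 1 being Fos without array 2 or 3; by adjusted p alone, Gipr also passed with an offset of 0 and without array 1 or 2. The count near Crhr1 was 0 in all 13. The Crhr1 sex difference, 0.01, was -0.012 without array 2, 0.084 without array 3 and -0.069 without array 4 (limma adjusted p from 0.893 to 1 over 9 alternatives); these fits kept the channel correlation of the full fit. The members past adjustment for sex and for sex by genotype were 0 in the 9 and 5 alternatives run. Unpaired channels, without the replicate block, changed no count. The ratios themselves pair each mutant pool with the control pool of its array. Signal over background limits Crh, Ucn, Ucn2 and the second Crhr1 probe.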
